A study of Drosophila melanogaster with 4 samples.

Results

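RPD3 clusters lying within 2 Mb of the centromere end of 4 chromosome arms were described from chromatin immunoprecipitation with sequencing (ChIP-seq) of adult Drosophila melanogaster heads. A member was an enriched cluster of the authors' combined list that was narrower than 6 kb (6000 bp) and whose midpoint lay in the last 2 Mb of X, 2L or 3L, or in the first 2 Mb of 3R, where numbering starts at the centromere. The combined list held 7386 enriched clusters, of which 6816 were narrower than 6 kb and 253 were members: 48 on X, 51 on 2L, 30 on 3L and 124 on 3R. The members were chosen by position and width, and the rule did not use score, number per Mb or agreement between replicates. Earlier results of these data were known when the rule was set.

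The study holds 2 RPD3 ChIP samples and 2 inputs from head nuclei of the wild-type Oregon-R strain (Oregon-R-modENCODE), mixed adults, immunoprecipitated with the antibody Q3451 against RPD3. No treatment is named, and per the labels the flies came from population cages run on a 22-day adult cycle, with heads collected by sieving. The labels number the ChIP samples as replicates 1 and 2 without saying whether they came from separate fly populations, so the spread between them may be technical. Heads hold many cell types, and the lists give 1 value over all of them, so strong occupancy in few cells and weak occupancy in many cannot be told apart. The 2 samples form 1 group, so no test over samples was possible, and every difference below is a description. The 95% intervals given are exact and cover counting error over clusters, which are not independent replicates.

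RPD3 is a class I histone deacetylase of Drosophila, related to HDAC1 of mammals. It removes acetyl groups from histone tails as a subunit of corepressor complexes such as Sin3 and NuRD. Toward the centromere each chromosome arm passes from gene-rich euchromatin into pericentric heterochromatin, which is rich in repeats, poor in genes and marked by histone H3 lysine 9 methylation and HP1. Genes placed next to it can be silenced in some cells and not in others, a phenomenon called position-effect variegation, and mutations of Rpd3 are known to modify it in flies.

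RPD3 clusters were sparse in the proximal 2 Mb of X, 2L and 3L and were not sparse in that of 3R. In the combined list the members numbered 24 per Mb on X (17.7 to 31.8, exact Poisson interval) against 55.1 per Mb over the rest of the arm. On 2L there were 25.5 per Mb (19 to 33.5) against 53.1. The lowest density was that of 3L, with 15 per Mb (10.1 to 21.4) against 57.1. On 3R there were 62 per Mb (51.6 to 73.9) against 54.3, and the rest of that arm lay inside the interval.

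The replicates' own lists, cut by the same limits of position and width, gave the same order of arms. Replicate 1 held 43 such clusters on X, 44 on 2L, 22 on 3L and 102 on 3R, and replicate 2 held 41, 47, 24 and 107. The ratio of the proximal density to that of the rest of the arm was 0.482 ± 0.032 on X, 0.538 ± 0.018 on 2L, 0.259 ± 0.0055 on 3L and 1.19 ± 0.08 on 3R (SD, n = 2). The 2 replicates therefore differed far less from each other than 3R differed from the other arms. In the combined list the same ratios were 0.436 (0.319 to 0.582), 0.481 (0.356 to 0.636), 0.263 (0.177 to 0.377) and 1.14 (0.942 to 1.37).

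**Figure D1:**
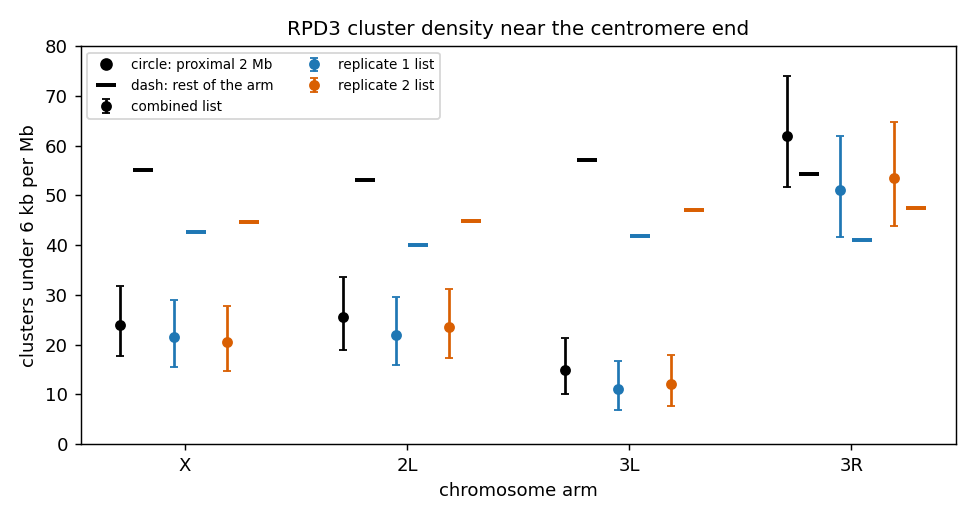
Clusters narrower than 6 kb per Mb (vertical axis) for each arm in the combined list and in each replicate list. Circles with bars are the proximal 2 Mb with the 95% exact Poisson interval, and dashes are the rest of the arm; on X, 2L and 3L each circle lies below its dash, and on 3R each lies above it.

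Each arm was also divided into consecutive full 2 Mb windows counted from its centromere end. The remainder shorter than 2 Mb at the far end of each arm was left out. The proximal window held the fewest clusters of 11 windows on X, of 11 on 2L and of 12 on 3L, in the combined list and in each replicate list. On X the next lowest window of the combined list held 95 clusters against the 48 members, on 2L it held 82 against 51, and on 3L it held 77 against 30. On 3R the 124 members ranked 4 from the top among 13 windows, with 127 in the fullest. The emptiest window of 3R was the adjoining one, 2 to 4 Mb from the centromere end, with 84 clusters in the combined list, 60 in replicate 1 and 66 in replicate 2. The emptiest full window of 3R thus lay farther out than that of the other arms in all 3 lists.

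The share of sequence covered gave the same picture as the number of clusters. Clusters narrower than 6 kb covered 6.68% of the proximal 2 Mb of X against 14.4% of the rest of the arm, 6.93% against 14% on 2L, 3.35% against 14.7% on 3L and 17% against 14.3% on 3R. A further 18 clusters of 6 kb or wider had their midpoints in these stretches. They numbered 3 on X, 4 on 2L, 2 on 3L and 9 on 3R, and each of the 18 overlapped both replicates. The share of all clusters of this width that did so is not given here. The full overlap therefore cannot be called particular to these stretches. On X, 2L and 3L these wide clusters lay in the outer 1 Mb, from 1183 to 1499 kb, 1331 to 1870 kb and 1682 to 1713 kb from the centromere end. On 3R they began 60 kb from it.

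The members were also counted in steps of 250 kb. The ratios of inner to outer counts of the 3 sparse arms, given below, had overlapping intervals, so counting error does not separate these arms. Summed over X, 2L and 3L, the step nearest the centromere held 12 members, the next steps 9, 13, 17, 13, 17 and 25, and the outermost 23. Replicate 1 had 10 clusters in the nearest step and 21 in the outermost, and replicate 2 had 7 and 23. These are small counts, and no test of the trend was run.

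On 3L the counts were low throughout the inner 1 Mb. From the centromere outward its steps held 4, 2, 2, 3, 2, 4, 6 and 7 members. Members overlapped by both replicates numbered 1, 0, 1, 1, 1, 3, 3 and 7 in the same order. The inner 1 Mb of 3L held 11 members and the outer 1 Mb held 19, a ratio of 0.579 (0.249 to 1.28), which the counting error does not separate from 1. The replicate lists were steeper, with 5 against 17 clusters in replicate 1 (ratio 0.294, 0.0848 to 0.83) and 3 against 21 in replicate 2 (0.143, 0.0273 to 0.478). The low counts went on past the limit, where the steps from 2 to 2.5 Mb held 7 clusters each and the next held 18.

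On 2L the inner 1 Mb held 18 members against 33 in the outer 1 Mb, a ratio of 0.545 (0.289 to 0.997). Replicate 1 gave 15 against 29 and replicate 2 gave 16 against 31, so the ratio was 0.517 and 0.516. For recurrent members the counts were 14 against 22 and the interval reached past 1 (0.636, 0.301 to 1.3), as it did without clusters narrower than any replicate cluster (0.667, 0.346 to 1.26), among clusters above the list median (0.45, 0.18 to 1.03) and with clusters under 500 bp apart joined (0.567, 0.293 to 1.06). The steps from the centromere outward held 4, 3, 3, 8, 1, 8, 10 and 14 members, so the sequence was broken by the step from 1000 to 1250 kb. That step held a single member, which scored 0.15 and was overlapped in replicate 2 alone.

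The X showed no clear gradient within its 2 Mb. Its steps held 4, 4, 8, 6, 10, 5, 9 and 2 members, and the outermost step was the emptiest in each list. The inner 1 Mb held 22 members and the outer 26, a ratio of 0.846 (0.457 to 1.55). The step just past the limit held 16 clusters. The 3R steps held 17, 15, 14, 11, 26, 23, 15 and 3 members, with the peak from 1000 to 1500 kb and the lowest count farthest from the centromere. In those 2 richest steps of 3R, members covered 27.2% and 29.7% of the sequence.

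**Figure D2:**
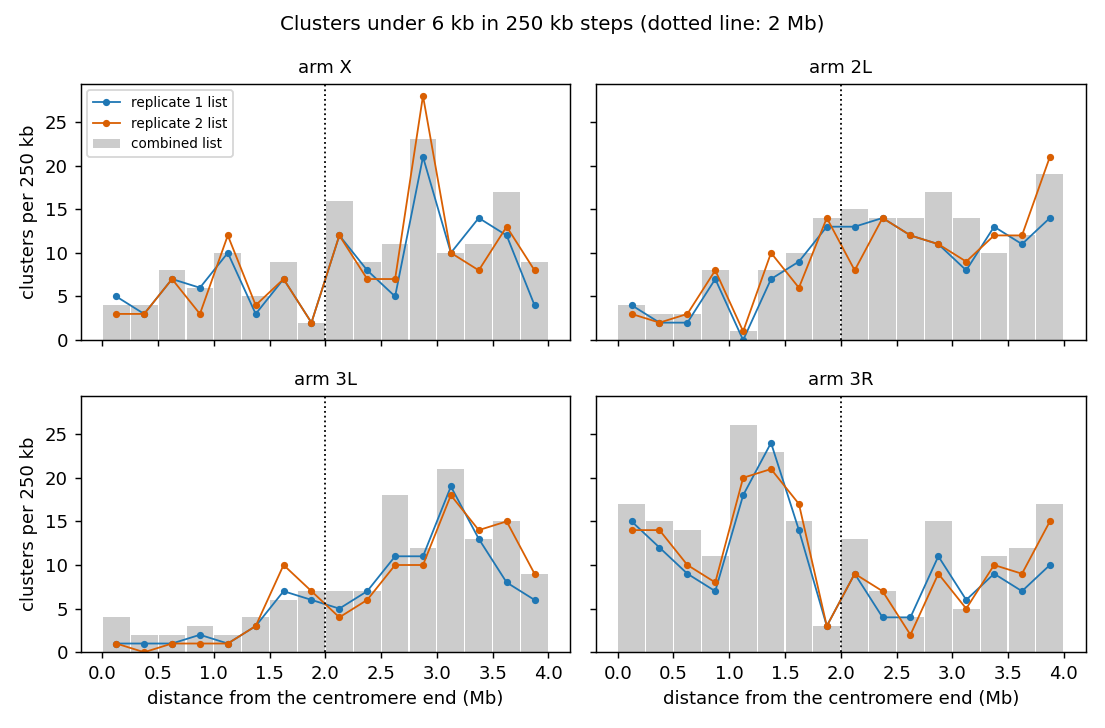
Clusters narrower than 6 kb per 250 kb step (vertical axis) against distance from the centromere end of each arm in Mb, out to 4 Mb. Grey bars are the combined list and lines are the replicate lists; 3L and 2L fill up outward, X stays low and uneven up to the dotted 2 Mb line, and 3R peaks between 1 and 1.5 Mb and has its lowest counts, 3 and 4 clusters, in steps between 1750 and 2750 kb.

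The spacing of clusters set X apart from 2L and 3L. On X, the median gap between neighbouring clusters of any width was 4.62 kb in the proximal 2 Mb and 4.67 kb over the rest of the arm. On 2L it was 11.5 kb against 4.9 kb, on 3L 42.5 kb against 5.44 kb, and on 3R 4.32 kb against 4.95 kb. Proximal X clusters were therefore as closely set as elsewhere on the arm, but they stood in islands. In the replicate lists the X medians were 4.39 against 5.29 kb and 7.36 against 6 kb, those of 2L 17.8 against 6.04 kb and 13 against 6.92 kb, and those of 3L 25.7 against 6.92 kb and 22.4 against 7.45 kb. These comparisons were not tested.

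Splitting at gaps of over 100 kb, the 51 proximal X clusters of any width fell into 10 groups that together spanned 478 kb, or 23.9% of the 2 Mb. The fullest group, from 21149868 to 21260962, held 14 clusters, covered 46.4% of its length and contained 13 clusters of replicate 1 and 14 of replicate 2. The group from 20794032 to 20999940 held 13, and that from 21844506 to 21943190 held 10. The group closest to the centromere, from 22396702 to 22416748, held 3 clusters and ended 6.08 kb before the arm end. Of the 10 groups, 8 held clusters of both replicates, and 4 consisted of 1 cluster each.

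The 32 proximal 3L clusters also fell into 10 groups, but 6 of these were single clusters and 18 of the 32 clusters stood in the group from 22708474 to 23144782. On 2L there were 5 groups, the fullest with 37 clusters from 21050640 to 21795966. On 3R a single group of 132 clusters ran from 4 to 1835332, which was nearly the whole stretch. In the combined list the longest cluster-free gaps of the whole arm lay in the proximal stretch on 2L, with 222 kb from 21795967 to 22018449, and on 3L, with 227 kb from 23436277 to 23663345. In each replicate list this held for X, 2L and 3L. The longest gap of X was 342 kb in replicate 1 and 337 kb in replicate 2, and that of 2L was 361 kb and 222 kb. On 3L it was 460 kb and 508 kb, beginning 15.4 and 14 kb from the centromere end. How much of these gaps was unassembled or repeated sequence was not analysed here.

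**Figure D3:**
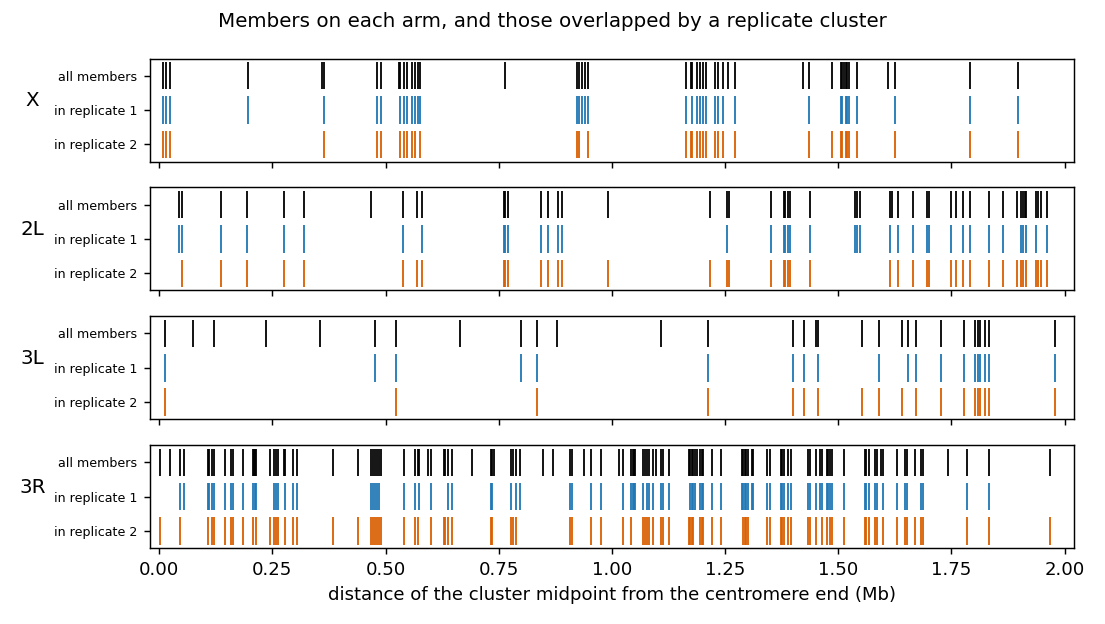
Each vertical line is a member, placed by the distance of its midpoint from the centromere end in Mb, with the members overlapped by a replicate 1 or replicate 2 cluster drawn again in the rows below. X members stand in separated islands, 3L members are scattered singly in the inner 1250 kb, where most have no replicate line, and 3R members fill the stretch up to 1.8 Mb.

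The authors' score of a cluster was taken to be the log2 of its ChIP signal relative to input, and the score median of the combined list was 0.59. On X the median score of members was 0.84 (0.61 to 0.97, exact interval from order statistics) against 0.61 over the rest of the arm. On 2L it was 0.66 (0.47 to 0.72) against 0.51, on 3L 0.45 (0.38 to 0.86) against 0.48, and on 3R 0.58 (0.44 to 0.74) against 0.52. The rest lay just below the interval on X and inside it on the other arms.

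The gap on X was smaller in the replicates' own lists, where the medians were 0.92 against 0.87 in replicate 1 and 1.05 against 0.92 in replicate 2. On 2L the sign changed, with 0.69 against 0.72 in replicate 1 and 0.74 against 0.79 in replicate 2. Levels were not compared between lists. Among X members 32 of 48 (66.7%, 51.6 to 79.6) scored above the list median, where 51.6% of the rest of X did and 46% of the whole list under 6 kb. On 2L this was 29 of 51 against 43.5% of the rest, on 3L 14 of 30 against 42.8%, and on 3R 61 of 124 against 45.3%.

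Of the 51 members on 2L, 2 (3.92%, 0.479 to 13.5) reached the top 10% of scores of clusters under 6 kb, against 9.6% of the rest of 2L, which lay inside the interval. On X 6 of 48 did so against 12.3% of the rest, on 3R 12 of 124 against 9.59%, and on 3L 6 of 30 (20%, 7.71 to 38.6) against 8.47%. Of these 6 on 3L only 2 overlapped both replicates, against 108 of 109 over the rest of 3L. The others of the 6 overlapped neither replicate. On X 5 of 6 overlapped both, on 2L 2 of 2 and on 3R 12 of 12.

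Median widths of the rest of the arm lay inside the intervals of the members' medians. Members had a median width of 2518 bp on X (2121 to 3041) against 2395 bp over the rest, 2511 bp on 2L (2253 to 2945) against 2405 bp, 1972 bp on 3L (1515 to 2679) against 2277 bp, and 2634 bp on 3R (2357 to 2899) against 2423 bp. Against the adjoining 2 Mb, the emptiest window of 3R, 3R members were wider, by 474 bp (197 to 739), and scored 0.16 higher (0.025 to 0.32). These intervals take the adjoining median, of 84 clusters, as fixed. In the replicate lists the width gap was 538.5 and 121.5 bp. In replicate 2 the adjoining median (2418 bp) lay inside the interval of the proximal one (2363 to 2729). On X, 2L and 3L the intervals of both gaps to the adjoining 2 Mb took in 0. Clusters up to 1500 bp made up 9 of the 30 members on 3L (30%, 14.7 to 49.4) against 19.3% of the rest and 20.3% of the whole list under 6 kb. On X they were 7 of 48 against 21%, on 2L 6 of 51 against 17.7%, and on 3R 17 of 124 against 19.5%.

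Most members were found in both replicates, and the share was lowest on 3L. A cluster was said to recur where it overlapped, by 1 bp or more, a cluster of both replicate lists, as 57.7% of the combined list under 6 kb did. Of the 253 members 171 recurred (67.6%, 61.4 to 73.3, Clopper-Pearson), 25 overlapped replicate 1 alone, 25 overlapped replicate 2 alone and 32 overlapped neither. The share overlapping neither was 12.65% (8.8 to 17.4), against 17.2% of the combined list under 6 kb. Of the 6816 clusters of that list, 705 overlapped replicate 1 alone and 1003 replicate 2 alone. On X 35 of 48 recurred (72.9%, 58.2 to 84.7) against 57% of the rest of the arm. On 2L 36 of 51 did (70.6%, 56.2 to 82.5) against 58.2%, on 3R 83 of 124 (66.9%, 57.9 to 75.1) against 59.9%, and on 3L 17 of 30 (56.7%, 37.4 to 74.5) against 57.2%. The rest of the arm lay below the interval on X and inside it on the other 3 arms. On X it lay inside the interval too with no width limit, without clusters narrower than any replicate cluster, or with overlap asked of either replicate alone, as did the 62.3% of the adjoining 2 Mb. Among clusters above the list median the gap of X was -0.742 points.

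Recurrence followed score, and above the list median the members of no arm had a higher share than the rest. Of all clusters under 6 kb scoring above it, 94.3% recurred. Among members above it, 30 of 32 recurred on X (93.8%, 79.2 to 99.2) against 94.5% of the rest. On 3R 60 of 61 did (98.4%, 91.2 to 99.96) against 98.7%. On X and 3R the rest thus lay inside the interval. On 2L 25 of 29 recurred (86.2%, 68.3 to 96.1) against 97.1%, and on 3L 9 of 14 (64.3%, 35.1 to 87.2) against 97.6%. On 2L and 3L the rest lay above the interval. Of the 2L members that did not recur, 3 were neighbours found in replicate 1 alone, described below. Members at or below the median recurred in 5 of 16 cases on X against 16.9% of the rest, 11 of 22 on 2L against 28.3%, 8 of 16 on 3L against 26.9% and 23 of 63 on 3R against 27.7%. The low-scoring members had the higher share on each arm, but their intervals, 11 to 58.7 on X, 28.2 to 71.8 on 2L, 24.7 to 75.4 on 3L and 24.7 to 49.6 on 3R, reached the share of the rest.

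Read from the replicates' own lists, recurrence near the centromere was near that of the rest of the arm. Of replicate 1 clusters in the proximal stretch, 83.7% overlapped replicate 2 on X, 88.6% on 2L, 86.4% on 3L and 82.4% on 3R, against 79.4%, 83.5%, 83.7% and 84.9% over the rest. Of replicate 2 clusters, 92.7%, 83%, 91.7% and 87.9% overlapped replicate 1, against 83.4%, 78.7%, 79.9% and 80.6%. The few clusters that each replicate called in the proximal 2 Mb of 3L were therefore mostly the same sites. Most of them lay in the outer 1 Mb, 17 in replicate 1 and 21 in replicate 2. The inner 1 Mb held 5 and 3, too few to describe agreement near the 3L end.

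**Figure D4:**
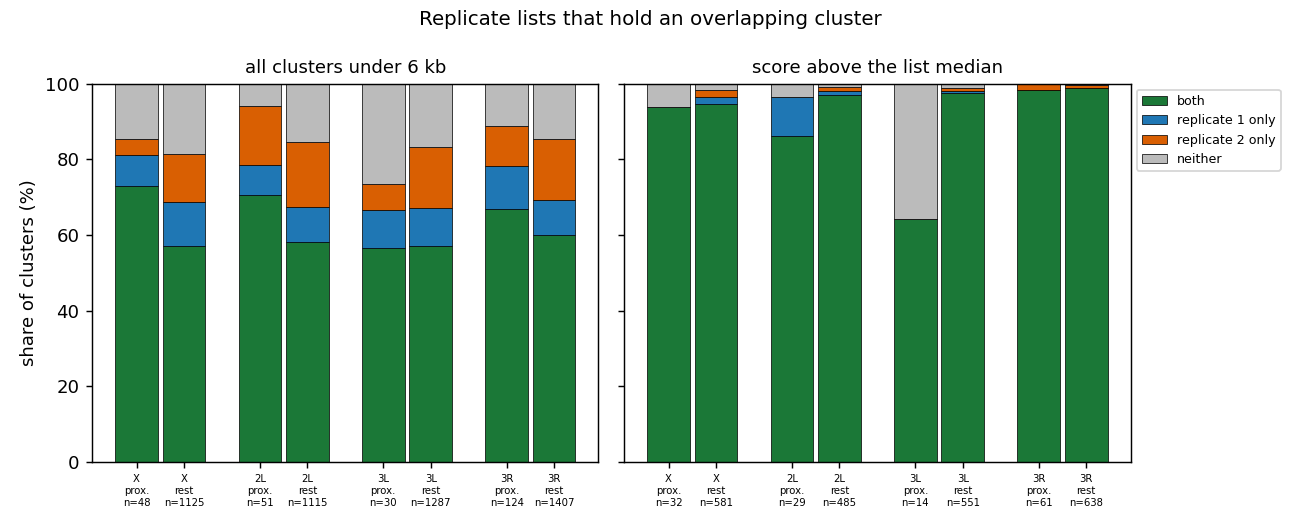
Share of clusters narrower than 6 kb (vertical axis, %) overlapped by both replicates, by 1 of them or by neither, for the proximal 2 Mb and the rest of each arm. The left panel holds all such clusters and the right panel those above the list median score, where 35.7% of the 14 proximal 3L clusters overlapped neither replicate.

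The high-scoring clusters of proximal 3L that overlapped neither replicate were 5 narrow sites. They made up 5 of the 14 members above the list median on 3L (35.7%, 12.8 to 64.9), against 1.09% of such clusters over the rest of the arm and 3.57% in the whole list under 6 kb. On X there were 2 of 32 against 1.72%, on 2L 1 of 29 against 0.825%, and on 3R 0 of 61, which allows a share of up to 4.92% (3 counts of 61) or 5.87% (Clopper-Pearson), against 0.47%. The highest, on 3L from 23435274 to 23436276 (1003 bp), scored 3.36 and ranked second among all 7386 clusters. The others lay from 24422198 to 24423464 (score 1.89), 23663346 to 23664444 (1.85), 23878400 to 23879400 (1.65) and 24467896 to 24469126 (1.19).

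All 5 sites lay in the inner 1250 kb of 3L and were 1001 to 1267 bp wide, which is narrower than the narrowest cluster of either replicate list (1301 bp). Read numbers per cluster are not given. These sites were singled out after their values were seen. Width and score hardly went together among the 30 proximal 3L members (Spearman's rho 0.0959, against 0.753 over the rest of the arm). Among the 17 recurrent ones rho was 0.799, against 0.527 over the 736 recurrent clusters of the rest of the arm. These are descriptions across clusters of 1 list.

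The inner 1250 kb of 3L held 13 members in all, of which 4 recurred, 2 overlapped replicate 1 alone and 7 overlapped neither. Over the rest of 3L 16.7% of clusters under 6 kb overlapped neither. The recurrent 4, named here after their values were seen apart from the first, scored from 0.22 to 0.70. The nearest to the centromere, from 24528190 to 24531680 (3491 bp), lay 13.6 kb from the arm end and scored 0.46 in the combined list, 0.66 in replicate 1 and 0.37 in replicate 2. It was followed outward by 24020462 to 24022342 (score 0.22), 23706982 to 23709076 (0.44) and 23330228 to 23333788 (0.70). In the outer 750 kb 13 of 17 members recurred, and over the rest of the arm 57.2% did. The limit of 1250 kb was set after the values were seen. With the split at 1 Mb, 3 of 11 inner and 14 of 19 outer members recurred. Of the 13 members in the inner 1250 kb, 8 were narrower than any replicate cluster, and 0 of the outer 17 were. With the split at 1 Mb, 7 of 11 inner and 1 of 19 outer members were that narrow. Over all proximal 3L members the share was 26.7% (12.3 to 45.9). Over the rest of 3L 13.9% of clusters under 6 kb were that narrow, which lay inside this interval.

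**Figure D5:**
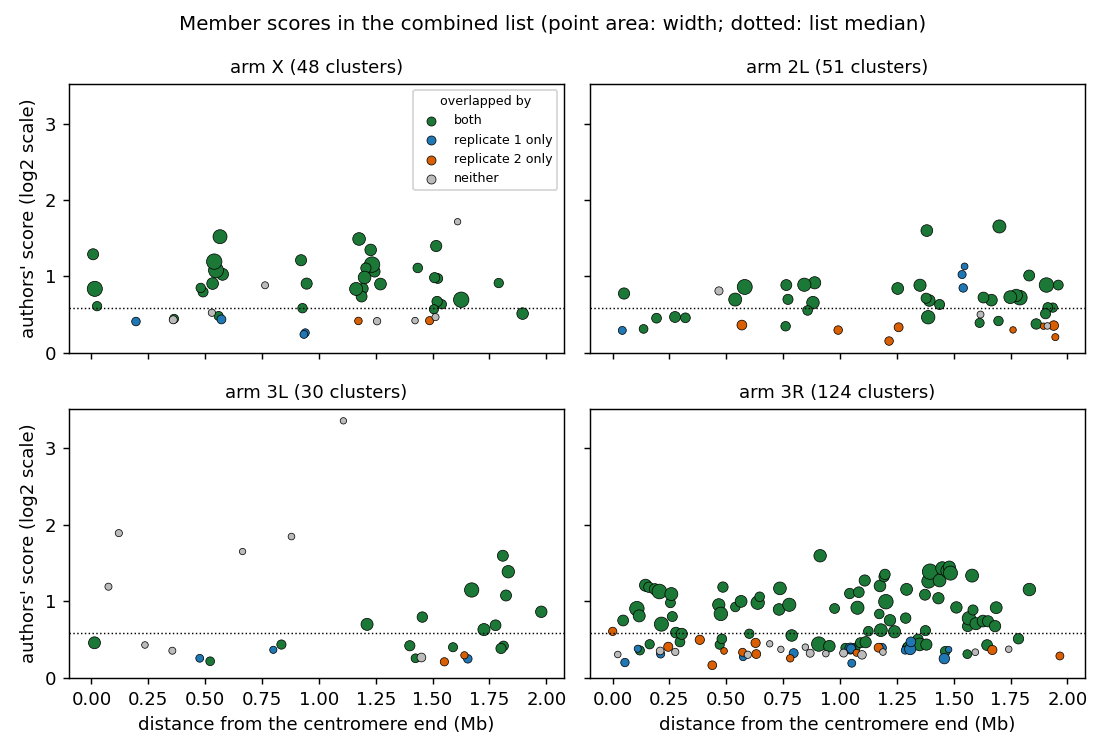
Authors' score in the combined list (vertical axis, log2 scale) of each member against distance from the centromere end in Mb, with point area proportional to width and colour for the replicates that overlap it. The grey points above 1 on 3L are the 5 narrow sites found in neither replicate; recurrent members of all 4 arms stay below 1.7.

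The 3 highest-scoring recurrent members of each arm made 12 sites, of which 10 stood in the outer 1 Mb. That 1 Mb held 105 of the 171 recurrent members. With 3 taken per arm, the 12 are not the highest of all members, and the third of 2L ranked 55. On 2L the highest lay from 21308264 to 21312446 (4183 bp), 1701 kb from the centromere end, with a score of 1.65 in the combined list, 1.31 in replicate 1 and 1.85 in replicate 2. The next 2L site, from 21627688 to 21631066, scored 1.60, 1.41 and 1.89 in the same order. These were the 2 members of 2L in the top 10%, and the third recurrent site of the arm, from 21177722 to 21180676, scored 1.01. The widest recurrent 2L member, from 22427418 to 22432916 (5499 bp), lay 581 kb from the end and scored 0.86.

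On 3R the highest recurrent member lay from 910980 to 914766 (3787 bp) and scored 1.60 in the combined list, 1.15 in replicate 1 and 2.00 in replicate 2. Its rank was 1177 in replicate 1 and 98 in replicate 2, so the lists placed it differently. The next, from 1478916 to 1482568 (score 1.45) and from 1447400 to 1451626 (1.43), stood close to each other in the dense part of the stretch, with ranks of 917 and 716 in replicate 1 and of 264 and 253 in replicate 2. The widest recurrent 3R member, from 1392972 to 1398748 (5777 bp), scored 1.39 and stood in the same dense part.

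On X the highest recurrent member lay from 21854972 to 21859766 (4795 bp), 565 kb from the arm end, with a score of 1.52 in the combined list, 1.19 in replicate 1 and 1.99 in replicate 2. The next, from 21243692 to 21247642, scored 1.49, 1.12 and 1.89. The third, from 20904786 to 20907888, scored 1.40, 1.51 and 1.42. Each of these 3 stood in 1 of the 3 fullest islands of the proximal 2 Mb. The widest X member, from 21185976 to 21191838 (5863 bp, score 1.15), was also the widest member under the limit, and the narrowest proximal cluster left out by it lay on 3R from 1602904 to 1609038 (6135 bp, score 0.76).

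On 3L the highest recurrent members stood close together, from 22733312 to 22736286 (score 1.60 in the combined list, 1.15 in replicate 1 and 1.74 in replicate 2) and from 22708474 to 22712276 (1.39, 1.39 and 1.59). The third, from 22868764 to 22873782 (5019 bp), was also the widest recurrent 3L member and scored 1.15. All 3 lay between 1672 and 1833 kb from the arm end.

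The clusters nearest the arm ends differed between arms. On X the last member, from 22413746 to 22416748 (3003 bp), had its midpoint 7.58 kb from the end, recurred, and scored 1.29 in the combined list, 1.43 in replicate 1 and 1.27 in replicate 2. On 2L the last member, from 22967710 to 22969272, scored 0.29 and overlapped replicate 1 alone, and the last recurrent one, from 22959316 to 22962418, scored 0.78. On 3R the first member ran from 4 to 1696, scored 0.61 and overlapped replicate 2 alone, and the first recurrent one, from 45354 to 48252, scored 0.75. At the outer limit, the farthest members and the first clusters beyond it were 1896 and 2027 kb from the end on X (scores 0.51 and 1.11), 1960 and 2084 kb on 2L (0.89 and 0.32), 1978 and 2076 kb on 3L (0.86 and 0.35), and 1967 and 2013 kb on 3R (0.29 and 0.23).

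A set of 3 neighbouring 2L members was found in replicate 1 alone although they scored above the list median. They ran from 21463382 to 21464522 (score 1.13), from 21468426 to 21470204 (0.85) and from 21473466 to 21475096 (1.02), between 1537 and 1548 kb from the centromere end. In replicate 1 they scored 1.43, 1.55 and 1.35, the second at rank 185 of 5550. Their starts stood 5044 and 5040 bp apart in the combined list and 5060 and 4906 bp apart in replicate 1, so they were evenly spaced. Replicate 2 had 0 clusters in this stretch. Whether the stretch holds repeated sequence, so that the 3 are not separate sites, was not analysed. They were singled out after their values were seen.

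For members matched 1 to 1 with clusters of both replicates, the replicate scores went together. Spearman's rho between the replicates was 0.607 over 158 members, against 0.646 over 2760 clusters of the rest of the 4 arms. By arm it was 0.463 over 33 members on X against 0.625 over the rest, 0.723 over 36 on 2L against 0.638, 0.779 over 15 on 3L against 0.656, and 0.548 over 74 on 3R against 0.638. These are correlations across clusters that share 2 libraries.

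Beyond the arm ends, the assembled heterochromatic scaffolds 2LHet, 3LHet and 3RHet held fewer clusters per Mb than the proximal 2 Mb of their arms. Clusters under 6 kb in the combined list numbered 6.26 per Mb on 3LHet (3.58 to 10.2) and 8.34 per Mb on 3RHet (5.16 to 12.7). In the replicate lists 3LHet had 4.7 and 4.3 per Mb, and 3RHet had 2.78 and 2.38, so the order of the 2 turned. The intervals of 3LHet and of the proximal 2 Mb of 3L (10.1 to 21.4) met at their ends, whereas 3RHet lay far below the 62 per Mb of proximal 3R. XHet and 2LHet are short. XHet held 5 such clusters, or 24.5 per Mb (7.95 to 57.2), close to the 24 per Mb of proximal X. 2LHet held 2 in each list, or 5.42 per Mb (0.657 to 19.6), against 25.5 per Mb (19 to 33.5) of proximal 2L in the combined list. These 2 intervals also met at their ends.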

How the data were processed

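RPD3 was mapped by ChIP-seq in 2 samples, each with an input named in the labels. Per the submitters' processing notes Bowtie 0.12.7 was used. The caller, its threshold, library depth and the making of the combined list were not given in the sources used here. The deposited lists give start, end and a score for each cluster on FlyBase release 5, per the file headers. The authors' score was read as log2, a scale inferred from its values. The score of the combined list is the authors' own value and never another replicate. The 1 region named as depleted was left out.

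Members, lists and comparisons were chosen with earlier results of these data known. Density was counted by midpoint. Intervals were exact (Poisson for counts, Clopper-Pearson for shares, the conditional binomial for ratios of densities, order statistics for medians), with the rest of the arm taken as fixed for medians and shares. Clusters named in the text were, per arm, the 3 highest-scoring and the widest recurrent member, the members nearest the centromere end, and those at the limits of the rule. Other named clusters are marked as chosen after their values were seen. The limits of 100 kb for groups and of 1250 kb on 3L were also set then. The gene table supplied is of release 6, so clusters were not assigned to genes. Arm 2R is not part of the rule. The functions were tested on simulated lists with known density ratios and overlaps. Python 3.11.15, pandas 2.3.3, numpy 2.4.6, scipy 1.17.1 and matplotlib 3.10.9 were used.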

Additional observations from a re-analysis of the deposited data

How the results depend on the processing

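Over 20 results (5 quantities on each of 4 arms) and 136 alternative values, 111 stayed within the interval of the reported value without changing sign, 19 changed sign and 6 moved beyond the interval. The lower density of X, 2L and 3L kept its direction under each alternative. That of 3R was 1.48 times the adjoining 2 Mb, against 1.14 times the rest of the arm, and its inner to outer ratio turned from 0.851 to 1.14 with clusters under 500 bp apart joined, which also brought that of X from 0.846 to 1. The inner to outer ratio of 3L was 0.222 without clusters narrower than any replicate cluster, and 0.143 to 0.294 over the replicate lists. Among clusters above the list median, the score gap became -0.0064 on X, -0.12 on 2L and 0.23 on 3L, the width gap on X -161 bp, and the recurrence gap -0.742 points on X, -10.9 on 2L, -33.4 on 3L and -0.385 on 3R. Without clusters narrower than any replicate cluster, the width gap became -48 bp on X, -40 bp on 2L and 87 bp on 3L, the score gap -0.15 on 3L and -0.011 on 3R, and the recurrence gap 10.9 points on 3L. With no width limit the score gap of 3L was 0.0098. In the replicate lists the score gap ranged from 0.05 to 0.12 on X, -0.054 to -0.029 on 2L, -0.11 to -0.058 on 3L and -0.00068 to 0.056 on 3R. The width gap ranged from 12 to 153 bp on X, -59 to 37 on 2L, -58 to 19 on 3L and 41 to 296.5 on 3R. Among clusters above the list median, the interval of the 2L score gap (-0.22 to -0.046) left out 0. The causes were not tested beyond these settings. No paired analysis was possible because no list gives values for the inputs, which leaves a single group of ChIP samples. Read depth is unknown, so what it limits cannot be stated.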
